A study of Mus musculus with 6 samples.

Results

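The carnitine acyltransferases are the enzymes that move acyl groups between coenzyme A and carnitine. The 6 mouse genes Cpt1a, Cpt1b, Cpt1c, Cpt2, Crat and Crot were taken by symbol from a table of 43760 rows, and all 6 were among the 12354 genes tested. RNA was sequenced from 3T3-L1 cells, a mouse fibroblast line used as a model of fat cell formation, with the genotype labelled WT in every sample. At day 7 the cells had been differentiated with IBMX, insulin, dexamethasone and rosiglitazone (spelled roziglitazone in the labels), and at day 0 they were harvested without differentiation, with 3 libraries for each day. No label tells if each library is a culture of its own, so the replicate error behind every p-value here may be technical, and all come from 1 cell line. The differentiation itself, the agents of the cocktail and the extra days in culture cannot be told apart in this design. The headers give the 3 day 7 columns the same number, and they are named here by their place in the table, as the first, the second and the third. The family was chosen by its log2 fold changes between day 7 and day 0, which were known when it was proposed. Its values in that comparison are therefore a description, with no test and no p-value.

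Long-chain fatty acids enter the mitochondrial matrix as acylcarnitines. An enzyme of the CPT1 type on the outer membrane joins the acyl group to carnitine, a carrier in the inner membrane (Slc25a20) exchanges acylcarnitine for free carnitine, and CPT2 on the matrix side gives the acyl group back to coenzyme A for beta-oxidation. Malonyl-CoA, the first intermediate of fatty acid synthesis, inhibits CPT1, so that synthesis and oxidation of fatty acids are opposed in liver and muscle. CRAT acts on acetyl groups and other short chains in mitochondria and peroxisomes, and CROT acts on medium chains made in peroxisomes.

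Libraries held 7655821 to 16987068 estimated counts. Levels are CPM, the counts of a gene scaled to a common library size, after TMM scaling, which assumes that most genes do not differ between libraries. The 6 adipocyte markers summed to 3468 to 6199 CPM in day 7 libraries, against 4.23 to 5.01 CPM in day 0 libraries. The 5 of them that were tested rose, and Lep, with 1 count in the first day 7 column and 0 elsewhere, was too low to test. Adipoq, Plin1, Cidec and Cfd had at most 2 counts in a day 0 library. Only their day 7 counts let these genes pass the filter on low counts, so nothing is read from their calls. The 6 preadipocyte or fibroblast markers summed to 1768 to 2846 CPM in day 7 libraries, against 6794 to 7745 CPM in day 0 libraries, and all 6 fell. Of all genes tested 30.8% rose and 29.2% fell. The day 7 cells, which the labels also call fibroblasts, thus held RNA of both marker groups. Markers of other cells were near 0: in sum hepatocyte markers were at 0.102 to 0.794 CPM in day 7 libraries against 0 to 0.0877 CPM in day 0 libraries, macrophage markers at 0.951 to 1.93 CPM against 0.870 to 2.02 CPM at day 0, and endothelial markers at 0.624 to 1.43 CPM against 0.263 to 0.684 CPM at day 0. In bulk RNA, fewer cells of a type and less RNA per cell cannot be told apart.

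At day 7 the transcripts of Cpt1a and Cpt1c were lower, those of Cpt2 and Crat were higher, and those of Crot and Cpt1b overlapped between the days. In the fit over all genes 4 of the 6 members lay past the threshold, beside 60.0% of all genes tested, and the groups did not overlap for 4, beside 68.3% of all genes tested. Nothing is read from these counts, since the members were chosen with this comparison known.

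**Figure D1:**
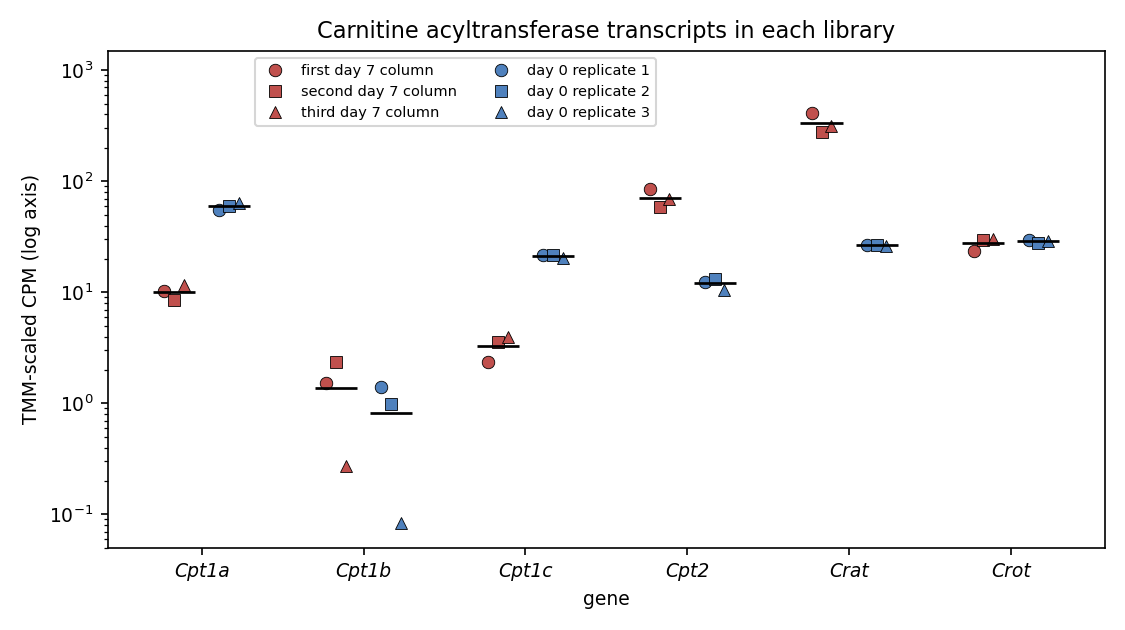
CPM of each carnitine acyltransferase in every library, on a log axis, with day 7 libraries in red and day 0 libraries in blue and a line at each mean of 3 libraries. Crat lies at 279 to 409 CPM in day 7 libraries, against 26.4 to 26.9 CPM in day 0 libraries, while Crot overlaps between the days.

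Cpt1a encodes the liver form of the outer membrane enzyme, which is also the form of most fibroblasts and other dividing cells. It lies on chromosome 19 at 3322334 to 3385733 (GRCm38, plus strand). Its level was 10.4, 8.45 and 11.5 CPM in the day 7 columns in table order, against 55.5, 60.2 and 63.2 CPM in day 0 replicates 1, 2 and 3. Every day 7 library lay below every day 0 library, and the lowest day 0 value was above the highest day 7 value by several times the spread within either day. The fitted log2 fold change was -2.56 ± 0.14 (SE), or 5.91-fold lower at day 7. The values rest on 83 to 183 counts per day 7 library and 633 to 968 per day 0 library.

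Cpt1c encodes the form found mainly in neurons, located at the endoplasmic reticulum and with little measured transferase activity. It lies on chromosome 7 at 44959372 to 44974851 (minus strand). Its level was 2.38, 3.56 and 3.94 CPM in the day 7 columns, against 21.6, 21.5 and 20.3 CPM in the day 0 replicates. The log2 fold change was -2.72 ± 0.20 (SE), 6.60-fold lower at day 7, close in size to that of Cpt1a. The day 0 libraries differed from each other by little, with a coefficient of variation of 3.47%, and the day 7 libraries by more, at 24.7%. The 6 markers of neurons summed to 3.26 to 7.37 CPM in day 7 libraries, against 11.5 to 12.9 CPM in day 0 libraries. Most of that sum was Map2, the 1 marker high enough to test, which fell. Snap25 went the other way, with 16, 8 and 9 counts in the day 7 columns and 0 in all day 0 replicates, and Rbfox3, a defining marker, was at 0 in all 6 libraries. The part of such cells in the result was not tested. Exons of Cpt1c share 366 bases with 6530437J22Rik on the opposite strand, which was not matched to a row.

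Cpt1b encodes the form of skeletal muscle, heart and brown fat. It lies on chromosome 15 at 89416405 to 89425863 (minus strand). It was close to the limit of detection in every library, with 27.4, 23 and 2.13 counts in the day 7 columns, against 16, 16 and 1 in the day 0 replicates. In CPM these are 1.53, 2.34 and 0.272 at day 7, against 1.40, 0.994 and 0.0834 at day 0. The days overlapped, and the third day 7 column and day 0 replicate 3 were each several times lower than the other libraries of their day. The log2 fold change of 0.79 had a standard error of 0.79, so that neither a rise nor a fall could be told from the spread at this depth. Its exons share 2744 bases on the same strand with Gm44502, an annotated gene that also spans the neighbouring Chkb, and counts of Cpt1b were not whole in 2 libraries. Gm44502 was not matched to a row, so it has no counts of its own here. How reads of the shared bases were assigned was not tested, and the values of Cpt1b are uncertain for that reason. Skeletal muscle markers were near the floor, at 0.453 to 4.21 CPM in sum in day 7 libraries against 0 to 0.249 CPM in day 0 libraries, with Myog, Myod1 and Myh1 at 0 in all libraries.

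Among brown fat markers, Ucp1, the defining gene, was at 0 in all 6 libraries. The 4 of 6 that were tested rose, beside 30.8% of all genes tested. Cox8b and Elovl3 had 0 counts in every day 0 replicate, and Cox7a1 had at most 1. Only their day 7 counts let these genes pass the filter on low counts, so nothing is read from their calls. This list summed to 58.0, 37.4 and 20.2 CPM in the day 7 columns, against 8.95 to 10.2 CPM in day 0 libraries. Most of the sum at day 0 was Ppargc1a, at a mean of 9.34 CPM, and it was at 22.2 CPM at day 7. Elovl3 was uneven, with 170, 17 and 7 counts in the day 7 columns. Like the sum of this list, Cpt1b was lowest of the day 7 columns in the third, but it was highest in the second. At day 0 Cpt1b was lowest in replicate 3, where the sum of this list was highest. The part of such cells in the values of Cpt1b was not tested.

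Cpt2 encodes the matrix enzyme that follows CPT1 and the carrier. It lies on chromosome 4 at 107903981 to 107923610 (minus strand). Its level was 85.2, 58.4 and 68.7 CPM in the day 7 columns, against 12.4, 13.2 and 10.6 CPM in the day 0 replicates. The lowest day 7 library was thus above the highest day 0 library, and the first day 7 column was the highest of its day. The log2 fold change was 2.55 ± 0.17 (SE), 5.86-fold higher at day 7. Its size was thus almost that of the difference in Cpt1a, with the opposite sign.

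Promoter sequences are shown for Cpt1a, Cpt1c and Cpt2, the members of the CPT group that differed most between the days. Each is the 250 bases before the transcript start in RefSeq (GRCm38.p6), read 5′ to 3′ along the gene. Of the 6 members 4 were matched in the RefSeq promoter table, the other being Crot, and Cpt1b and Crat were not matched. The gene positions given in the text come from GENCODE, whose starts can differ from those of RefSeq. By those positions the whole Cpt1a window lies inside the annotated gene. The windows of Cpt2 and Crot overlap their genes in part, and that of Cpt1c lies outside its gene. Capitals mark matches on either strand to CCAAT (the CCAAT box), GGGCGG (the GC box), CCGGAAG (the core that ETS factors bind) and AGGTCA (the nuclear receptor half-site).
Cpt1a, chr19:3323051-3323300, plus strand: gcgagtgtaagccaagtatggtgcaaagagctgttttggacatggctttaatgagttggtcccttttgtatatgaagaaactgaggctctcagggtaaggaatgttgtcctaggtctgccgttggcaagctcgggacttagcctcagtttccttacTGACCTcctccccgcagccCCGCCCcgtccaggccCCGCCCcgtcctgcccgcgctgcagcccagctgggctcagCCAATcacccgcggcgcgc
Cpt1c, chr7:44974852-44975101, minus strand: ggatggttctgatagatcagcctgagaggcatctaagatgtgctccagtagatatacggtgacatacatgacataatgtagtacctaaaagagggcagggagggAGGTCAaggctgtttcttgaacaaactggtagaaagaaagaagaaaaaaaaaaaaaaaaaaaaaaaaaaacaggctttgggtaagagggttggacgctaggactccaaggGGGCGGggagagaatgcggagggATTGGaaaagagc
Cpt2, chr4:107923590-107923839, minus strand: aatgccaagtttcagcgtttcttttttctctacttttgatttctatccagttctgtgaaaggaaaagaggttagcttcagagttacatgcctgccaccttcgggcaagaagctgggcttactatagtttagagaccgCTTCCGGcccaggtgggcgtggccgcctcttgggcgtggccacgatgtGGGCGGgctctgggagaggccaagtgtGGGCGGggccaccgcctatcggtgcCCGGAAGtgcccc
The Cpt1a window held 1 CCAAT box, 2 GC boxes and 1 half-site. The Cpt1c window held 1 of each of these motifs. The Cpt2 window held 2 GC boxes and 2 ETS cores, 1 of them 13 bases before the start, and neither a CCAAT box nor a half-site. The window of Crot, whose level overlapped between the days, held 1 CCAAT box, 2 GC boxes and 1 ETS core. It thus shared motifs both with the genes that were lower and with Cpt2. Among 32851 RefSeq promoter windows of this length, 33.8% held a CCAAT box, 32.7% a GC box, 14.0% a half-site and 6.91% the ETS core. The direct repeat AGGTCANAGGTCA, the consensus of the element that PPAR and RXR bind as a pair, was in none of the 3 windows, nor in that of Crot. It was in 0.0335% of all windows. Only exact matches were searched, and with a string so rare nothing is read from its absence. The motif matches describe letters in the windows, and whether any factor binds there was not measured.

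Crat encodes carnitine acetyltransferase, which buffers acetyl-CoA by forming acetylcarnitine. It lies on chromosome 2 at 30400471 to 30415813 (minus strand). Its level was 409, 279 and 315 CPM in the day 7 columns, against 26.9, 26.8 and 26.4 CPM in the day 0 replicates. Every day 7 library was above every day 0 library by more than the spread of either day. The log2 fold change was 3.65 ± 0.18 (SE), 12.5-fold higher at day 7, and 98.0% of tested genes had a lower one. The day 0 libraries agreed within a coefficient of variation of 1.11%, while the day 7 libraries spread by 20.1%. Among the day 7 columns the adipocyte marker sum was 5682, 3468 and 6199 CPM, lowest in the second column like Crat and Cpt2, and highest in the third, where Crat and Cpt2 were not at their highest. Its part in this spread was not tested. Exons of Crat share 59 bases with Dolpp1 and 411 with Gm16323 on the opposite strand. Dolpp1 had 301, 138 and 92 counts in the day 7 columns, against 51, 60 and 40 in the day 0 replicates, higher at day 7 like Crat but below its counts in every library, and Gm16323 had at most 2 counts in a library.

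Crot encodes the peroxisomal carnitine octanoyltransferase. It lies on chromosome 5 at 8966033 to 8997324 (minus strand). Its level was 23.7, 29.7 and 30.6 CPM in the day 7 columns, against 29.9, 27.6 and 29.3 CPM in the day 0 replicates. The days overlapped, and the first day 7 column was the lowest of all 6 libraries. The log2 fold change was -0.05 ± 0.13 (SE), so that a difference in either direction was smaller than the spread between libraries. It was 0.06 without the first day 7 column and -0.29 when libraries were scaled by total counts alone. Under that scaling the median log2 fold change over the genes tested was -0.21, against 0.02 with TMM, so Crot lay close to the median gene under both.

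Levels of different genes were compared per length, as CPM per kilobase of annotated exons. In day 7 libraries the order was Crat at 62.1 ± 12.5, Cpt2 at 29.6 ± 5.66, Crot at 5.13 ± 0.68, Cpt1a at 1.32 ± 0.20, Cpt1c at 0.588 ± 0.145 and Cpt1b at 0.409 ± 0.309 CPM per kilobase (SD, n = 3). Neighbours in this order did not overlap between libraries, except Cpt1c and Cpt1b. In day 0 libraries the order was Cpt1a at 7.80 ± 0.51, Crot at 5.30 ± 0.22, Cpt2 at 5.05 ± 0.56, Crat at 4.95 ± 0.05, Cpt1c at 3.77 ± 0.13 and Cpt1b at 0.245 ± 0.20 CPM per kilobase. Crot overlapped with Cpt2 there and Cpt2 with Crat, so the place of Cpt2 between them is within the spread, while Crot was above Crat in every day 0 library. With the longest transcript as length, Cpt1c at 6.47 CPM per kilobase and Crat at 6.32 stood above Cpt2 at 5.09 at day 0, while the day 7 order was the same. Against all 11726 tested genes with a length, Cpt1a stood above 24.4% at day 7 and above 73.5% at day 0, and Crat above 97.0% at day 7 and 60.7% at day 0.

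The family's make-up therefore differed between the days. Crat made up 62.5% ± 1.57 of the summed level per length in day 7 libraries, against 18.3% ± 0.20 in day 0 libraries (SD, n = 3 each). Cpt2 made up 29.8% ± 0.67 at day 7 and 18.6% ± 1.76 at day 0. Both held a larger share in every day 7 library than in any day 0 library. Cpt1a made up 1.35% ± 0.22 at day 7 and 28.8% ± 2.20 at day 0. The share of Cpt1c was 0.618% ± 0.224 at day 7 and 13.9% ± 0.29 at day 0, and that of Crot was 5.35% ± 1.47 at day 7 and 19.6% ± 1.05 at day 0. These 3 members held smaller shares in every day 7 library than in any day 0 library. For Crot the level itself overlapped between the days, at 5.13 CPM per kilobase at day 7 and 5.30 at day 0. Its share was thus smaller because the summed level of the family was higher, unlike those of Cpt1a and Cpt1c, whose levels were lower. Cpt1b made up 0.431% ± 0.372 at day 7 and 0.898% ± 0.734 at day 0, which overlapped. Its share was 0.234% at day 7 without the second day 7 column and 0.581% at day 0 without replicate 1. The summed level of all 6 was 99.1 ± 17.4 CPM per kilobase at day 7, against 27.1 ± 0.48 at day 0.

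**Figure D2:**
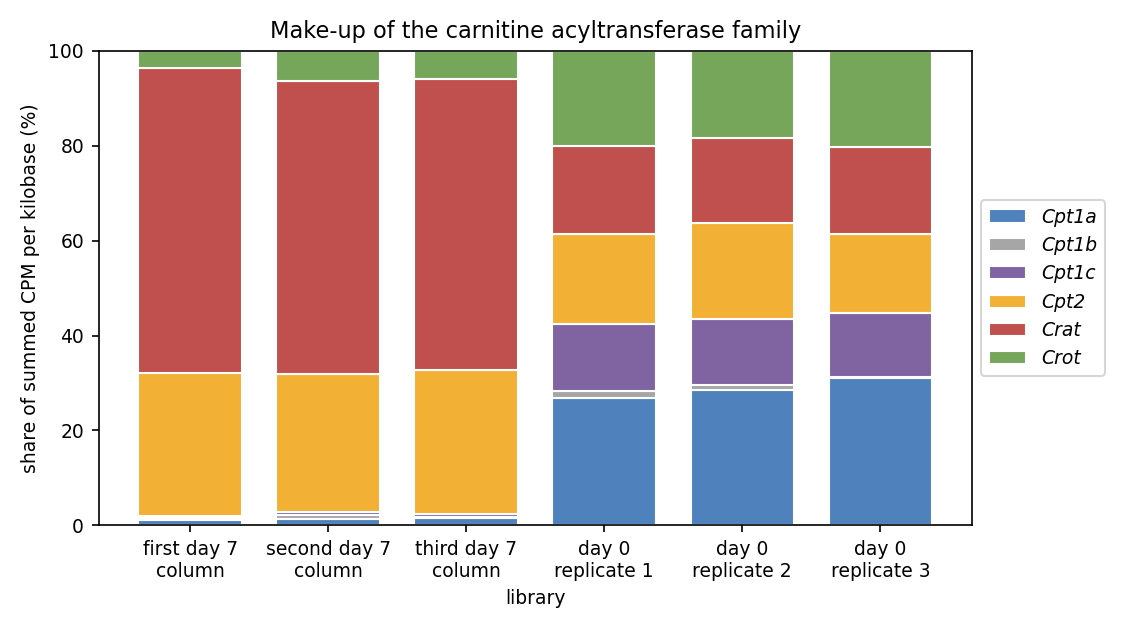
Share of each member in the family's summed CPM per kilobase of exon, in percent, with 1 bar per library and the 3 day 7 columns left of the 3 day 0 replicates. Crat and Cpt2 fill most of every day 7 bar, at 61.5% to 64.3% and 29.0% to 30.2%, while at day 0 5 members each hold 13.6% to 31.1%.

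Within the CPT1 group, the summed level of Cpt1a, Cpt1b and Cpt1c was 2.24, 2.44 and 2.29 CPM per kilobase in the day 7 columns, against 11.5, 12.0 and 11.9 in the day 0 replicates. The sum was thus lower in every day 7 library than in any day 0 library, as Cpt1a was. Cpt1a was 60.7%, 45.4% and 65.8% of that sum in the day 7 columns, against 63.0%, 65.6% and 69.4% in the day 0 replicates. The ratio of Cpt1a to Cpt1c per length overlapped between the days, at 1.74 to 3.20 in day 7 libraries and 1.89 to 2.29 in day 0 libraries. Cpt1b was 20.3%, 28.5% and 3.51% of the sum in the day 7 columns, against 3.61%, 2.46% and 0.208% in the day 0 replicates, shares that rest on the few counts given above.

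The transcripts of the enzymes before and after the carrier stood in opposite order on the 2 days. Per length, Cpt2 over Cpt1a was 26.3, 22.1 and 19.0 in the day 7 columns, against 0.712, 0.703 and 0.535 in the day 0 replicates. Every day 7 library had more Cpt2 than Cpt1a transcript, and every day 0 library had less. Crat over Crot was 17.5, 9.52 and 10.4 in the day 7 columns, against 0.912, 0.983 and 0.912 in the day 0 replicates. The first day 7 column stood highest for both ratios. With the longest transcript as length, which is 4317 bases for Cpt1a against 7642 bases of annotated exons, the ratio was lower, at 12.8 ± 2.07 at day 7 and 0.370 ± 0.057 at day 0 for Cpt2 over Cpt1a (SD, n = 3 each).

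**Figure D3:**
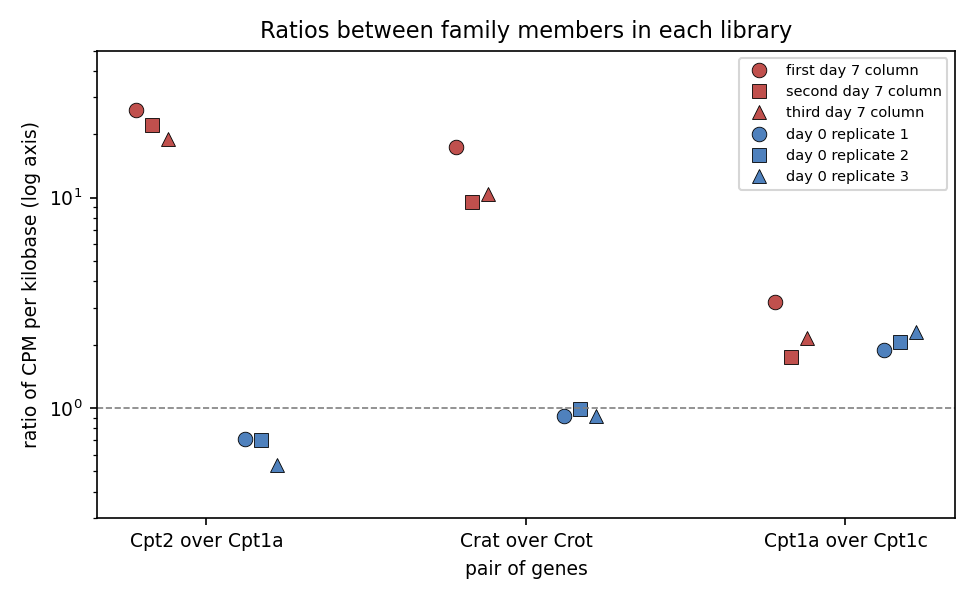
Ratios of CPM per kilobase between pairs of family members in each library, on a log axis, with day 7 libraries in red and day 0 libraries in blue and a dashed line at equal levels. Cpt2 over Cpt1a lies at 19.0 to 26.3 in day 7 libraries, against 0.535 to 0.712 in day 0 libraries, while Cpt1a over Cpt1c overlaps between the days.

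The genes around the carnitine shuttle were described from 7 lists written from general knowledge, with earlier results of these data known. The counts of each list are therefore given as a description. Some of the genes counted as rising, such as Acaa1b, Acox2, Cd36, Ppara, Thrsp and Ucp3, had at most 8 counts over the day 0 libraries. Only their day 7 counts let these genes pass the filter on low counts. Nothing is read from their calls, which the counts and medians of the lists include. In the comparison of day 7 with day 0, 30.8% of the 12354 tested genes rose and 29.2% fell (adjusted p under 0.05 in the quasi-likelihood test of edgeR), with a median log2 fold change of 0.02. With total-count scaling 2355 genes rose and 4025 fell, while with TMM 3802 rose and 3611 fell.

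Of 8 tested genes of carnitine uptake, synthesis and exchange, 4 rose and 1 fell, with a median log2 fold change of 0.84. Slc25a20, the carrier between CPT1 and CPT2, was at 22.6 ± 7.23 CPM at day 7 and 7.99 ± 0.72 CPM at day 0 (SD, n = 3 each; log2 fold change 1.51 ± 0.25, edgeR adjusted p = 0.0012). Slc22a5, the main carnitine importer of the plasma membrane, rose 4.39-fold to 14.8 ± 3.26 CPM, with counts that were not whole in all 6 libraries. Slc22a4, a related organic cation transporter, rose 7.24-fold to 4.57 ± 1.92 CPM, and Aldh9a1, which acts in carnitine synthesis, rose 3.14-fold. Shmt2, a mitochondrial serine hydroxymethyltransferase, fell 1.48-fold. Slc22a21 (1.20 CPM at day 7, 1.62 CPM at day 0), Slc25a29 (3.31 CPM at day 7, 2.79 CPM at day 0) and Shmt1 (3.99 CPM at day 7, 3.79 CPM at day 0) did not pass the test. Slc22a21, whose counts were not whole in all 6 libraries, passed it as lower without the second day 7 column (log2 fold change -1.23, edgeR adjusted p = 0.041). Bbox1 and Slc22a16 were too low to test, and Tmlhe was not matched to a row.

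All 7 tested acyl-CoA synthetases changed, 6 upward and 1 downward, with a median log2 fold change of 1.48, and with total-count scaling 5 rose. The long-chain forms among these enzymes make the substrate of CPT1. Acsl1, the main long-chain form of adipocytes, was at 2337 ± 464 CPM at day 7, against 20.6 ± 1.07 CPM at day 0 (log2 fold change 6.83 ± 0.24, edgeR adjusted p = 3.1e-06). Acss2, which activates acetate, rose 19.9-fold and Acsl3 8.25-fold. Acsl5 fell 2.14-fold, to 11.8 ± 1.82 CPM at day 7, against 25.1 ± 1.67 CPM at day 0.

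The list on malonyl-CoA, the inhibitor of CPT1, had 8 of 10 tested genes that rose and 1 that fell, with a median of 2.25. Acaca, the cytosolic acetyl-CoA carboxylase that supplies fatty acid synthesis, was at 278 ± 31.6 CPM at day 7 and 25.8 ± 1.43 CPM at day 0 (log2 fold change 3.43 ± 0.14, edgeR adjusted p = 3.4e-06). Acacb, the carboxylase at the outer mitochondrial membrane, was at 60.2 ± 13.1 CPM at day 7 and 11.2 ± 1.36 CPM at day 0 (2.43 ± 0.18, edgeR adjusted p = 2.8e-05). Mlycd, the decarboxylase that removes malonyl-CoA, rose as well, to 16.8 ± 4.85 CPM at day 7, against 3.54 ± 0.84 CPM at day 0. Genes on both sides of malonyl-CoA thus rose. Prkaa2, a catalytic subunit of the kinase AMPK, which inhibits both carboxylases, rose 19.8-fold to 18.5 ± 1.99 CPM at day 7, against 0.901 ± 0.330 CPM at day 0. Prkaa1, the other catalytic subunit, rose only 1.7-fold, to 82.3 ± 14.4 CPM at day 7, against 48.7 ± 1.51 CPM at day 0. Thrsp, a regulator of lipogenesis, had 5587 counts at day 7 and 1 at day 0, a ratio of 6333 (95% counting interval 1136 to 250200), and its log2 fold change of 12.18 moved to 13.89 without day 0 replicate 2. Mid1 fell 2.67-fold, and Mid1ip1, a partner of acetyl-CoA carboxylase, did not pass the test at 36.1 ± 9.88 CPM at day 7 and 42.2 ± 2.28 CPM at day 0. Mid1ip1 passed it as lower without the second day 7 column (log2 fold change -0.47, edgeR adjusted p = 0.014) and with total-count scaling.

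All 21 genes of mitochondrial beta-oxidation rose, with a median log2 fold change of 2.09, and they rose in each fit that left out 1 library. With total-count scaling 20 of the 21 rose. Acadm, the medium-chain acyl-CoA dehydrogenase, rose 11.9-fold to 256 ± 53.2 CPM. Acadvl, the very-long-chain dehydrogenase that takes the product of CPT2, rose 8.08-fold to 192 ± 59.6 CPM. Hadhb, a subunit of the trifunctional protein, rose 9.45-fold, with counts that were not whole in all 6 libraries. Cpt2, at 2.55, lay inside the range of this list, which ran from 0.57 for Eci2 to 3.57 for Acadm, and Cpt1a, at -2.56, lay outside it. This is a description of values, and the difference between the genes was not tested.

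In peroxisomes, where CROT and part of CRAT act, 14 of 16 tested genes rose and 1 fell, with a median of 1.53. Crot, with its log2 fold change of -0.05, lay below the median of this list, and the difference was not tested. Acox2, an oxidase of branched chains, rose 70.9-fold to 15.3 ± 9.97 CPM, with 486 counts at day 7 and 8 at day 0, and its log2 fold change moved to 5.47 without the second day 7 column, against 6.15 with it. Scp2, which holds a thiolase and a sterol carrier, rose 7.89-fold, with counts that were not whole in 5 libraries. Acaa1b, a thiolase whose counts were not whole in 4 libraries, had 90 counts at day 7 and 1 at day 0, a ratio of 102.0 (95% counting interval 17.9 to 4073). Its log2 fold change of 6.44 moved to 8.29 without day 0 replicate 3 and to 5.77 without the third day 7 column. Abcd2 was uneven, at 23.0 ± 19.0 CPM at day 7 and 8.71 ± 0.27 CPM at day 0, and did not pass the test (edgeR adjusted p = 0.057), though it did without the second day 7 column, without a filter and with DESeq2. Its log2 fold change of 1.38 moved to 0.54 without the third day 7 column, where it did not pass either.

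**Figure D4:**
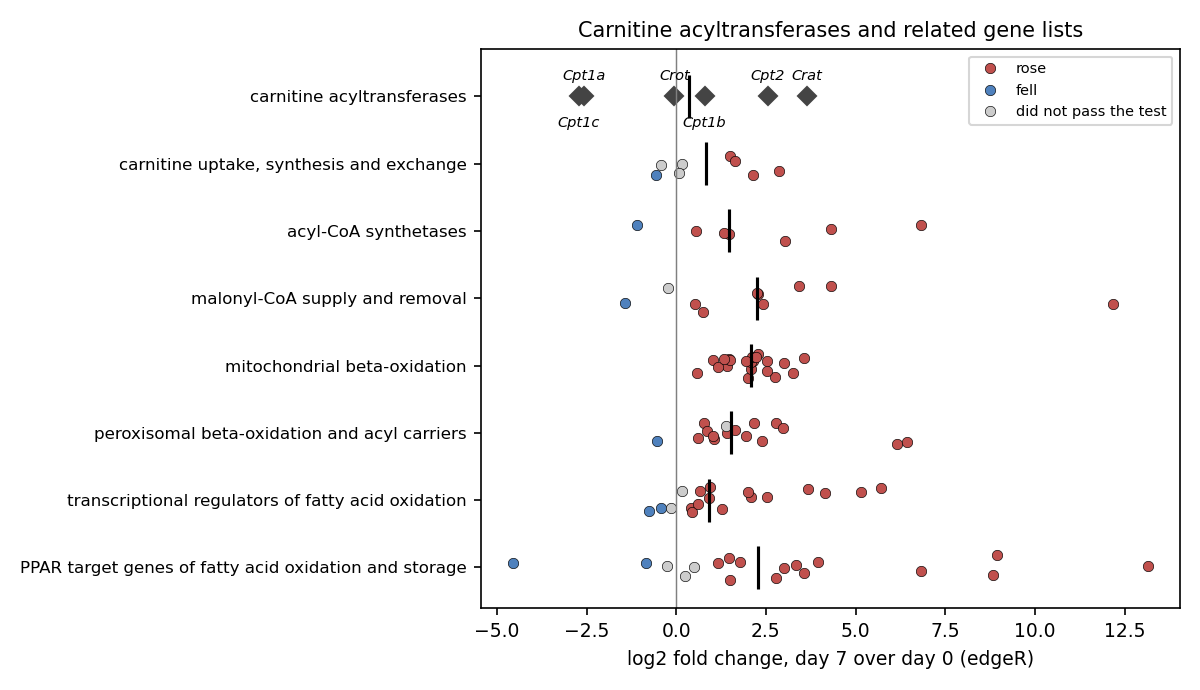
Log2 fold change of day 7 over day 0 for the 6 carnitine acyltransferases (diamonds) and for the tested genes of 7 lists (dots: red rose, blue fell, grey did not pass the edgeR test), with a line at the median of each row. Cpt1a and Cpt1c lie at -2.56 and -2.72, left of all dots except 1 PPAR target gene, and Cpt2 and Crat lie at 2.55 and 3.65 among the genes that rose.

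Regulators of fatty acid oxidation rose in 14 of 18 tested cases and fell in 2, with a median of 0.91. With total-count scaling 10 rose, and without day 0 replicate 1 the number was 11. Pparg, the PPAR of adipocytes, rose 12.7-fold to 171 ± 31.5 CPM. Ppard, the form found in most tissues, was at 81.7 ± 3.25 CPM at day 7 and 43.8 ± 1.71 CPM at day 0 (log2 fold change 0.90 ± 0.09, edgeR adjusted p = 0.00012). Ppara, the form of liver that drives fatty acid oxidation there, was at 3.10 ± 2.15 CPM at day 7 and 0.168 ± 0.080 CPM at day 0, with 131 counts at day 7 and 7 at day 0, and rose with a log2 fold change of 4.15, or 3.41 without the first day 7 column. Among coactivators, Ppargc1b rose 51.8-fold to 46.4 ± 13.2 CPM and Lpin1, which acts as coactivator and phosphatase, rose 35.3-fold to 429 ± 91.1 CPM. Ppargc1a rose less, to 22.2 ± 11.1 CPM at day 7, against 9.34 ± 0.73 CPM at day 0 (1.27 ± 0.33, edgeR adjusted p = 0.011). Pprc1, also of that coactivator family, fell 1.69-fold, and Creb1, a cAMP-responsive factor, fell 1.33-fold. The mediator subunit Med1 (60.5 CPM at day 7, 54.1 CPM at day 0) did not pass the test, though it passed as higher without the third day 7 column (edgeR adjusted p = 0.025).

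A last list held known PPAR target genes of fatty acid oxidation and storage, a class to which Cpt1a, Cpt1b and Cpt2 are also counted in other tissues. Of 18 tested, 13 rose and 2 fell, with a median of 2.28. Ucp3, the gene without day 0 counts, lay above that median also at its bound, so the bound could not move it. Cd36, a fatty acid transporter, had 22403 counts at day 7 and 2 at day 0, a ratio of 12700 (95% counting interval 3514 to 104800). Its log2 fold change of 13.15 moved to 12.48 without day 0 replicate 2 and to 15.75 without day 0 replicate 3. Ucp3, a mitochondrial carrier, had 163 counts at day 7 and 0 at day 0, at least 61.6-fold higher, with the day 0 group set at a floor of 3 counts. Fabp4, a fatty acid binding protein, rose 456-fold to 2100 ± 607 CPM. Acot1, a cytosolic thioesterase, fell to 0.121 ± 0.114 CPM at day 7, against 3.53 ± 0.50 CPM at day 0, and its counts were not whole in 5 libraries. Its log2 fold change of -4.55 moved to -5.67 without the first day 7 column. Pdk4 (68.9 CPM at day 7, 49.0 CPM at day 0), Angptl4 (101 CPM at day 7, 122 CPM at day 0) and Vldlr (125 CPM at day 7, 105 CPM at day 0) did not pass the test, though Angptl4 passed it as lower without the third day 7 column (edgeR adjusted p = 0.047). Cpt1a lay on the side of the 2 PPAR target genes that fell, and Cpt2 on the side of the 13 that rose. The relative Chat, which encodes choline acetyltransferase of the same protein family, was not matched to a row.

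The genes whose pattern over the 6 libraries was most like that of each member were found by the root mean square difference of log2 CPM centred on each gene, among 7351 other genes of at least 10 CPM. With 2 groups of 3 this measure mostly reflects the size of the day difference, and it is given as a description. Nearest to Cpt1a were Ube2l6, an enzyme that attaches ISG15 to proteins, at 0.05, the annexin Anxa1 at 0.09 and Cmtm3 at 0.09, all lower at day 7. Nearest to Cpt1c were Rcn3, a protein of the endoplasmic reticulum, at 0.08, Antxr1, a receptor for anthrax toxin, at 0.09 and Lsp1 at 0.10. Nearest to Cpt2 were 3 genes of mitochondrial proteins: Clybl, a lyase of citramalyl-CoA, at 0.05, Pcca, a subunit of propionyl-CoA carboxylase, at 0.06 and Mpc1, part of the pyruvate carrier, at 0.08. Near to Crat were Echdc1, which removes ethylmalonyl-CoA, at 0.09 and Bnip3, a mitophagy receptor, at 0.10. Nearest to Crot were Fam76a, Mmp28 and Psmc2, each at 0.04. No gene was close to Cpt1b, whose nearest, Gm2026, was at 0.81. For scale, the gene in place 100 was at 0.29 for Cpt1a, 0.25 for Cpt1c, 0.27 for Cpt2, 0.44 for Crat and 0.10 for Crot.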

How the data were processed

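RNA was sequenced from 3 day 7 and 3 day 0 samples of 3T3-L1 cells with the Illumina Stranded Total RNA Prep, per the labels' protocols. The submitters' processing notes name Salmon 1.9.0, STAR 2.7.10a, Trim Galore 0.6.7 and the build GRCm38. How each tool was used, with which annotation and strand setting, is not given in the sources used here. Values deposited by the authors are estimated counts per gene without scaling, a unit read from the table itself. The 10 columns of values beside the table were not used. Rows that share a name (85 names) were kept apart.

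Counts were rounded, filtered with filterByExpr (minimum count 10, minimum total 15), scaled by TMM and tested with edgeR 4.0.16 (quasi-likelihood, group as the only factor, Benjamini-Hochberg over all 12354 tested genes, threshold 0.05). The standard error is the log2 fold change over the square root of F. DESeq2 1.42.0 was an alternative. Scripts were tested on simulated counts. Gene positions and exon lengths come from GENCODE M21 (GRCm38). Counting intervals are exact binomial at 95% and cover counting error only, as does the floor of 3 counts.

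The members and the lists were chosen with earlier results of these data known. Besides the members, the text names Slc25a20, Slc22a5, Acaca, Acacb, Mlycd, Acsl1, Pparg, Ppara, Ppard, Ppargc1a and Chat, in each list the 3 largest rises and the 2 largest falls, those that did not pass where 3 or fewer did not, and the 3 nearest patterns of each member. A few of the genes so selected are not reported here. Eci2, Prkaa1 and the genes that were too low or not matched were named after their values were seen. Alternatives were RLE and total-count scaling, no filter, 10 CPM in 3 libraries, DESeq2, leaving out each library, and the longest transcript as length.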

Additional observations from a re-analysis of the deposited data

How the results depend on the processing

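No paired analysis was possible because the headers of the 3 day 7 columns all carry the same replicate number. Of 29 log2 fold changes of members under other scalings, filters and DESeq2, 26 moved by less than the spread between replicates. With total-count scaling Cpt1a moved to -2.78, Crat to 3.44 and Crot to -0.29, while 2355 genes rose and 2 genes of the malonyl-CoA list fell. Cpt1b gave no value with the filter of 10 CPM. That filter, which tests fewer genes, left 9 peroxisomal genes that rose and 0 PPAR target genes that fell. The longest transcript as length gave shares at day 7 of 1.94% for Cpt1a, 0.859% for Cpt1c, 24.4% for Cpt2, 64.6% for Crat and 7.88% for Crot, and at day 0 of 33.2% for Cpt1a, 15.6% for Cpt1c, 12.2% for Cpt2, 15.2% for Crat and 23.2% for Crot.

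Leaving out each library in turn gave log2 fold changes of -2.64 to -2.45 for Cpt1a, -2.87 to -2.50 for Cpt1c, 2.39 to 2.67 for Cpt2, 3.47 to 3.76 for Crat, -0.12 to 0.06 for Crot and 0.26 to 1.29 for Cpt1b. The 0.26 was without day 0 replicate 3. In those fits 0 to 1 peroxisomal genes, 1 to 3 PPAR target genes, 1 to 2 carnitine uptake genes and 1 to 2 malonyl-CoA genes fell, and 11 to 14 regulators rose. The share of Cpt1b ranged over 0.234% to 0.605% at day 7 and 0.581% to 1.3% at day 0. The cause of these shifts was not tested. Depth limits Cpt1b most, with at most 27.4 counts in a library.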
